A study of Mus with 8 samples.

Results

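The genes described here belong to the unfolded protein response and the integrated stress response, the programmes by which a cell answers misfolded protein in the endoplasmic reticulum and shortage of amino acids. They were followed in 8 subcutaneous tumours of Pan02, a mouse pancreatic cancer cell line. The set holds 34 genes chosen by name, among 22911 genes that the array's probes could be matched to. It comprises 19 genes of protein folding and degradation in the reticulum, 4 sensors and transcription factors, and 11 targets of the factor Atf4. In all, 54 probes carry these 34 genes, and all 34 genes passed the filter on dim signals, which 16068 of the 22911 genes did.

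Control tumours, 4 in number, grew in wild-type B6 mice. Mutant tumours, also 4, grew in B6 mice with Ext1 flox/flox alleles and S100a4-Cre. Every host received the same Pan02 line, and the tumours came out on days 36 to 40. The labels name no drug or other agent. The cancer cells keep Ext1, the gene of a heparan sulfate polymerase. The deletion concerns host cells that have expressed S100a4, a gene of fibroblasts and of some other stromal cells, and the hosts' age and sex are not given in the sources used here. RNA came from whole tumours, so fewer cells of a type and less RNA per cell cannot be told apart in any value below. A level is the log2 signal of a gene minus the 75th percentile of its array, and a difference is Mutant minus Control on this scale. Values of 4 tumours are always given in the order of their numbers, 1 to 4.

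On the arrays, 61.5% to 67.2% of probes were well above background and no spot was saturated. Of 8 markers of an epithelial pancreatic tumour, 7 were measured, among them Krt8, Krt18 and Pdx1, while Epcam was well above background on 0 arrays. The Ext1 probe differed by 0.07 and does not check the deletion, since the cancer cells carry the intact gene. Over the 16068 genes limma called 0 at an adjusted p under 0.05 and 467 (2.91%) at an unadjusted p under 0.05. The labels do not state that each tumour came from a separate mouse, so p-values measure only the spread between these tumours. All arrays lay on 1 slide in 2 rows, each with 2 Control and 2 Mutant tumours. Skeletal muscle markers were above 0 in 8 of 8, 6 of them at an unadjusted limma p under 0.05. Their level was -0.46, 0.39, -2.27 and -3.78 in Control tumours and 2.22, 2.98, -0.84 and 1.77 in Mutant tumours. Of the 7 epithelial markers 5 were below 0 and 2 above, with a median of -0.53, and 3 were lower at that threshold. Their level was -0.03, -0.28, 0.38 and 0.76 in Control tumours and -0.15, -0.14, -0.04 and -0.51 in Mutant tumours. Without Control 4 their median was -0.36. Neutrophil markers were above 0 in 4 of the 4 measured, Ly6g not being among them, with a median of 0.97 and 1 at that threshold. Their level was 0.18, 0.46, 0.02 and -2.49 in Control tumours and 0.43, -0.05, 0.87 and 0.58 in Mutant tumours, and without Control 4 their median was 0.10. The part of muscle tissue, neutrophils or the share of cancer cells in the results below was not tested.

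When unfolded protein builds up in the reticulum, the sensors Ern1, Atf6 and Eif2ak3 respond. Ern1 splices the messenger of Xbp1, and spliced Xbp1 and cleaved Atf6 switch on chaperones, disulfide isomerases and the machinery that sends failed proteins to the proteasome. Eif2ak3, like kinases that sense amino acid shortage, haem shortage or viral RNA, phosphorylates the initiation factor eIF2, which slows translation in general but favours that of Atf4. Atf4 then raises genes of amino acid synthesis and import and, when stress lasts, Ddit3. Much of this control acts on splicing, cleavage and translation, which an array of transcript levels does not read.

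The 2 main arms of the set lay mostly on opposite sides of 0, and no member passed the test. Of the 19 folding and degradation genes, 17 were above 0, with a median difference of 0.18, or 1.13-fold. All 11 Atf4 targets were below 0, with a median of -0.53, or 0.692-fold. Over all genes tested, 52.4% were above 0, 47.6% were below 0, and the median was 0.01. At an adjusted p under 0.05 limma called 0 of the 34 members, and at an unadjusted p under 0.05 also 0, against 2.91% of all genes. In no member were the groups apart without overlap, which was so for 1.42% of all genes. The side of the Atf4 targets rested in large part on 1 tumour, Control 3. Without it their median was -0.18 and 8 of 11 were below 0, while the folding and degradation genes were above 0 in 19 of 19 with a median of 0.25. Over all genes without Control 3, 9139 of 16068 were above 0, 43.1% were below 0, and the median was 0.03. The size of the folding and degradation median also depended on 1 tumour, since without Mutant 4 it was 0.05. Their side depended less on that tumour. Without Mutant 4, 15 of 19 were above 0, as many as without Control 2 or without Mutant 1. Within slide rows 1 and 2 the median of the Atf4 targets was -0.25 and -0.97, and that of the folding and degradation genes 0.20 and 0.12. Control 3 and Mutant 4 both lay in row 2. Probes of 1 gene differed in sign for Dnajb9, Dnajb11 and Herpud1, and Hsp90b1 and P4hb lay above 0 with quantile scaling.

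**Figure D1:**
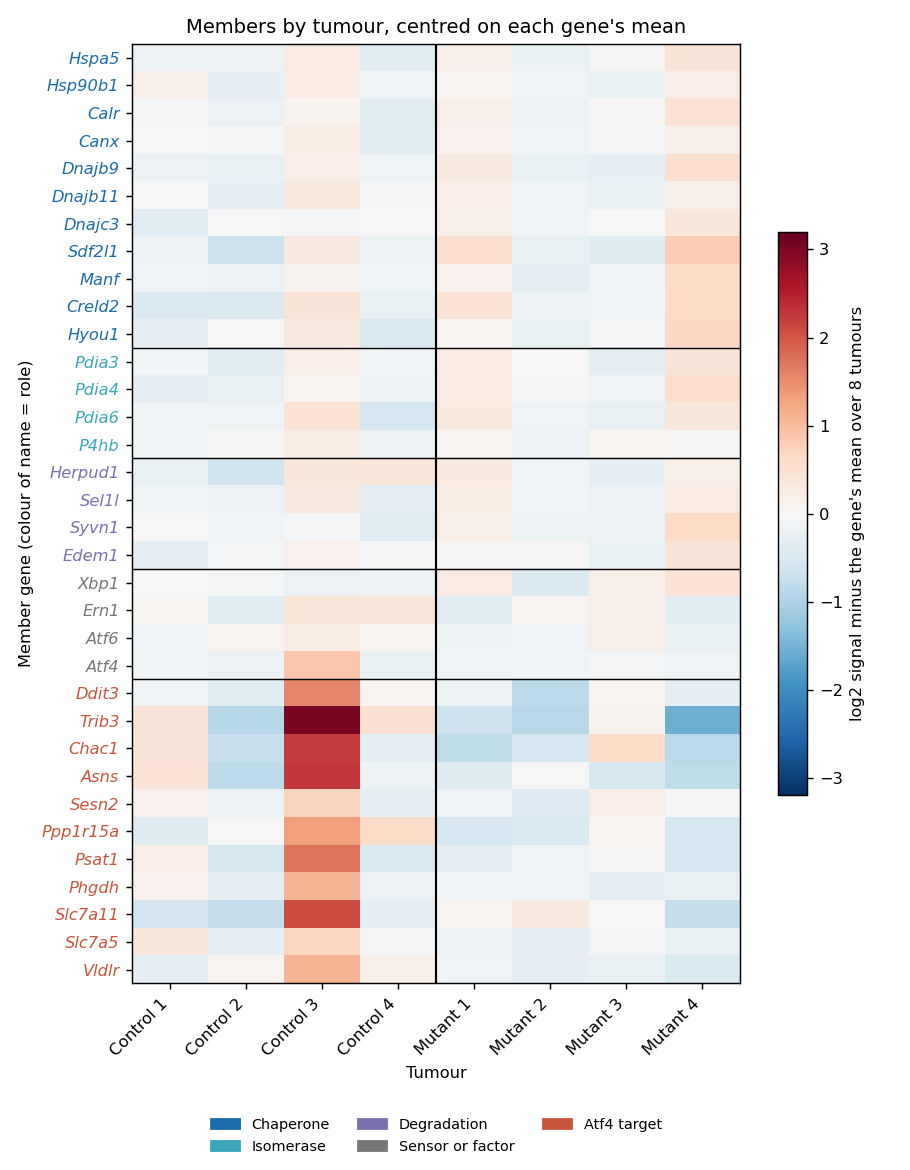
Log2 signal of each of the 34 members (rows, grouped by role) in each of the 8 tumours (columns, Control left, Mutant right), minus the gene's mean over the tumours. Control 3 is the highest column in all 11 Atf4 targets, while Mutant 4 is the highest in 12 of the 19 folding and degradation genes.

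Chaperones of the reticulum differed by little. Of the 11 chaperones and co-chaperones, 10 were above 0, and the differences ran from -0.01 to 0.37. Hspa5 encodes BiP, the Hsp70 of the reticulum, which binds exposed stretches of nascent proteins and holds the sensors inactive. Hspa5 was at 6.18, 6.20, 6.64 and 6.04 in Control tumours and at 6.54, 6.16, 6.40 and 6.78 in Mutant tumours. Mutant 4 was highest and Control 3 next, and the groups overlapped widely. The difference was 0.21 with a standard error of 0.18 (limma p = 0.290, adjusted p = 1, exact permutation p = 0.314), and the other passing probes of Hspa5 lay on the same side.

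Hsp90b1, the Hsp90 of the reticulum, hardly differed. It read 6.43, 6.02, 6.54 and 6.13 in Control tumours and 6.37, 6.15, 6.06 and 6.48 in Mutant tumours. Its difference was -0.01 with a standard error of 0.16, and each group had tumours at both ends of the range. Calr, the lectin chaperone calreticulin, was at 4.47, 4.34, 4.64 and 4.16 in Control tumours and at 4.68, 4.37, 4.55 and 4.98 in Mutant tumours. Mutant 4 and Mutant 1 were the highest, Control 3 followed, and the difference was 0.24 (standard error 0.16, limma p = 0.186, exact permutation p = 0.200). Canx, the membrane-bound partner of calreticulin, differed by 0.08.

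Among the cofactors, Dnajc3, an inhibitor of eIF2 kinases and a co-chaperone of BiP, had the smallest p of this role. Dnajc3 was at -0.01, 0.33, 0.29 and 0.32 in Control tumours and at 0.53, 0.25, 0.32 and 0.71 in Mutant tumours. Control 1 was the low value of the set, and Mutant 1 and Mutant 4 lay above every Control tumour (difference 0.22, standard error 0.14, limma p = 0.160, exact permutation p = 0.257). Creld2, a secreted target of the response, had the widest difference of the folding and degradation genes. It was at 4.54, 4.53, 5.40 and 4.76 in Control tumours and at 5.43, 4.83, 4.86 and 5.59 in Mutant tumours. Control 3 again stood with Mutant 1 and Mutant 4 at the top, and the difference was 0.37, or 1.30-fold (standard error 0.26, limma p = 0.191, exact permutation p = 0.171). Sdf2l1, a partner of BiP and Dnajb11, differed by 0.36, and its range over the tumours was from 0.57 in Control 2 to 2.08 in Mutant 4. Manf, a secreted factor, differed by 0.18, the nucleotide exchange factor Hyou1 by 0.22, and the co-chaperones Dnajb9 and Dnajb11 by 0.17 and 0.03.

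The 4 disulfide isomerases, which form and reshuffle disulfide bonds in folding proteins, had a median of 0.17. Pdia4 had the smallest p of all folding and degradation genes. Its levels were 0.67, 0.72, 1.02 and 0.79 in Control tumours and 1.24, 0.91, 0.86 and 1.52 in Mutant tumours. Mutant 1 and Mutant 4 were above every Control tumour, and Mutant 2 and Mutant 3 were below Control 3. The difference was 0.34, or 1.26-fold (standard error 0.17, limma p = 0.0859, adjusted p = 1, two-sided exact permutation p = 0.114). Pdia3, which acts on glycoproteins held by calreticulin and calnexin, differed by 0.18, Pdia6 by 0.16, and P4hb, which is also a subunit of collagen prolyl hydroxylase, by -0.01.

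**Figure D2:**
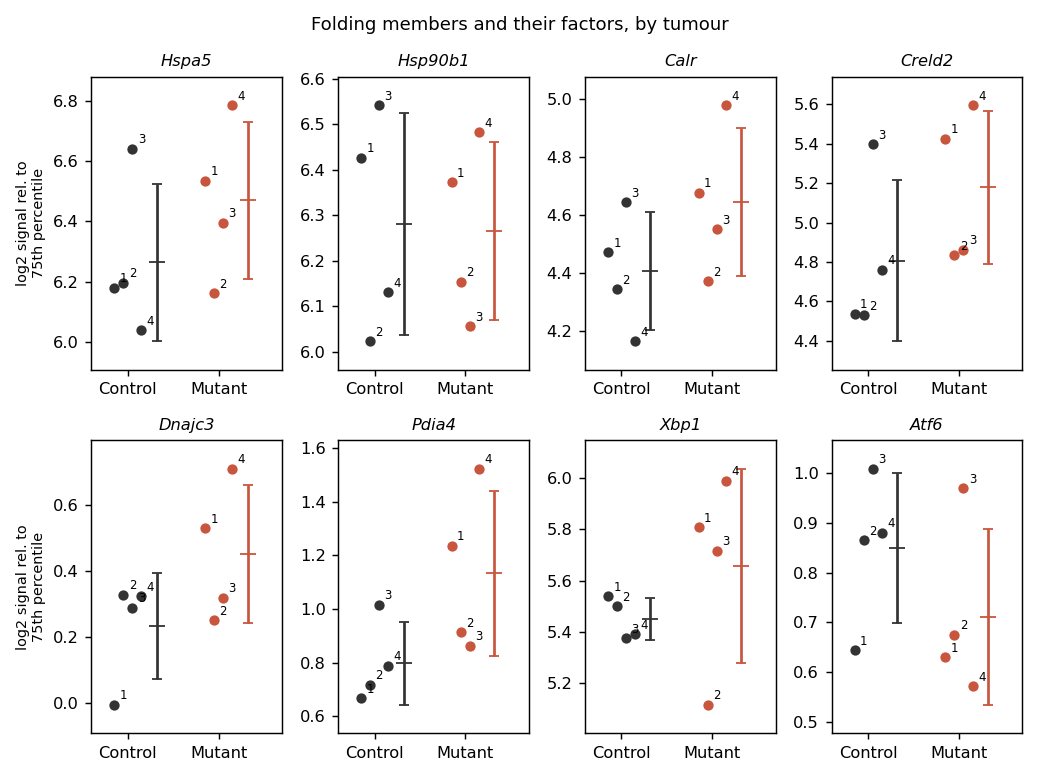
Log2 signal relative to the array's 75th percentile for 6 chaperone and isomerase genes, Xbp1 and Atf6. Points are tumours numbered by replicate, and bars give the mean and SD of 4 tumours. The groups overlap in all 8 genes, and Mutant 4 is the highest tumour in Hspa5, Calr, Creld2, Dnajc3, Pdia4 and Xbp1.

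Genes of reticulum-associated degradation had a median of 0.13, with all 4 above 0. Syvn1 encodes the ubiquitin ligase of this pathway, and it differed by 0.23, with Mutant 4 at 5.40 and the other tumours between 4.43 and 4.95. Its adaptor Sel1l differed by 0.12 and the mannosidase-like Edem1 by 0.14. Herpud1, which recruits substrates to the ligase, differed by 0.05 with a standard error of 0.26, and its highest tumours were Control 4 at 3.75 and Control 3 at 3.73.

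Across the 19 folding and degradation genes the level, as the mean of the members after centring each on its own mean, was -0.15, -0.22, 0.22 and -0.19 in Control tumours. In Mutant tumours it was 0.22, -0.14, -0.15 and 0.41. Mutant 4, Control 3 and Mutant 1 were thus the high tumours, and the other 5 lay close together. Mutant 4 was the highest of the 8 tumours in 12 of the 19 genes and Control 3 in 6, where Mutant 4 was highest in 6.6% and Control 3 in 25.3% of all genes. Plasma cells have a large reticulum and high chaperone levels. Of 8 of their markers 6 were measured, 3 of them above 0, while Tnfrsf17 and Cd79a did not pass the filter. Among the measured markers, Derl3 also stands in the list of further unfolded protein response genes described below. The level of the 6 markers was -0.63, -0.90, 1.25 and 0.38 in Control tumours and -0.24, 0.20, -1.59 and 1.54 in Mutant tumours. Mutant 4 and Control 3 were highest in these markers too, but Mutant 1 was not, and the part of such cells in the result was not tested.

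Of the 4 sensors and factors 1 was above 0, Xbp1, and their median was -0.16. Without Control 3, 2 of the 4 were above 0 and the median was -0.01. Xbp1, at 5.54, 5.50, 5.37 and 5.39 in Control tumours and 5.81, 5.12, 5.72 and 5.99 in Mutant tumours, was narrow in the Control group and wide in the Mutant group. The Mutant group held both the 3 highest values and the lowest, and the difference was 0.21 (standard error 0.19, limma p = 0.305, exact permutation p = 0.343). The position of the Xbp1 probes was not examined, so its spliced form is not told apart here. Ern1 read 0.09, -0.36, 0.41 and 0.41 in Control tumours and -0.33, 0.06, 0.16 and -0.35 in Mutant tumours. The low values of Ern1 were Control 2, Mutant 4 and Mutant 1, and the difference was -0.25 (standard error 0.21). Atf6 was at 0.64, 0.87, 1.01 and 0.88 in Control tumours and at 0.63, 0.68, 0.97 and 0.57 in Mutant tumours, which overlapped (difference -0.14, standard error 0.13).

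Atf4 itself was flat in 7 of the tumours. It was at 6.83, 6.74, 7.80 and 6.70 in Control tumours and at 6.79, 6.85, 6.89 and 6.78 in Mutant tumours. Control 3 stood 1.04 above the mean of the other Control tumours, or 2.06-fold, while the other 7 tumours spanned 0.20. The difference between the hosts was -0.19 (standard error 0.24, limma p = 0.464, exact permutation p = 0.914), and without Control 3 it was 0.07.

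Control 3 was the highest of the 8 tumours in 11 of 11 Atf4 targets, against 25.3% of all genes. It was also the array with the fewest probes well above background, 61.5%, with Mutant 3 close to it at 62.0%. The part of array quality was not tested. The level of the 11 targets was 0.07, -0.44, 1.62 and -0.04 in Control tumours and -0.30, -0.33, 0.01 and -0.58 in Mutant tumours. The SD of the targets was larger in Control than in Mutant tumours in all 11, with medians of 0.86 and 0.30. Over all genes the same held for 79.7%, with medians of 0.31 and 0.18. The median range of a target over the 8 tumours was 2.28, against 0.78 for folding and degradation genes and 0.80 for all genes.

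**Figure D3:**
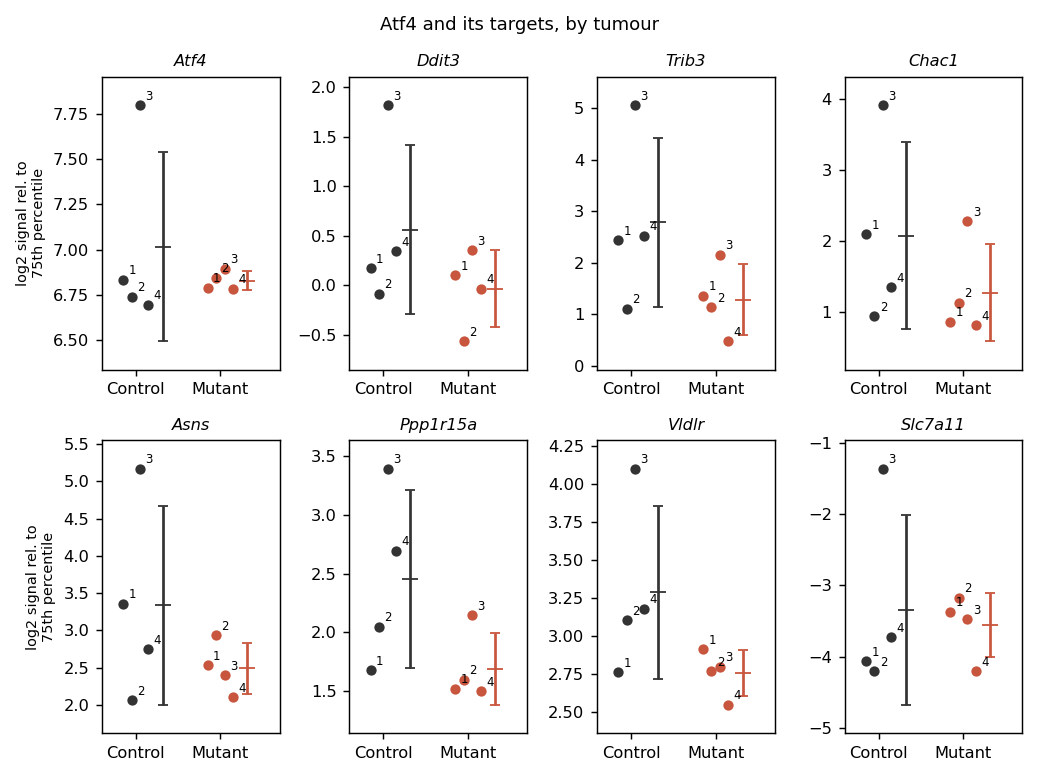
Log2 signal relative to the array's 75th percentile for Atf4 and 7 of its targets. Points are tumours numbered by replicate, and bars give the mean and SD of 4 tumours. Control 3 is above every other tumour in each panel, and the other Control tumours overlap the Mutant tumours.

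The widest difference of all members was that of Trib3, a stress effector. Trib3, a pseudokinase that restrains Atf4 in a feedback loop, was at 2.44, 1.11, 5.05 and 2.52 in Control tumours. In Mutant tumours Trib3 was at 1.36, 1.13, 2.15 and 0.48. Control 3 was 8.13-fold above the mean of the other Control tumours, and Mutant 4 was the lowest of all. The difference was -1.50, or 0.354-fold (standard error 0.79, limma p = 0.0943, adjusted p = 1, two-sided exact permutation p = 0.114). Without Control 3 it was -0.74, or 0.597-fold.

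Ppp1r15a, the phosphatase subunit Gadd34 that reverses eIF2 phosphorylation, had the smallest p of all 34 members. It read 1.68, 2.05, 3.39 and 2.70 in Control tumours and 1.52, 1.60, 2.14 and 1.50 in Mutant tumours. Mutant 1, 2 and 4 were below every Control tumour, while Mutant 3 overlapped with Control tumours. The difference was -0.76, or 0.590-fold (standard error 0.37, limma p = 0.0716, adjusted p = 1, two-sided exact permutation p = 0.114), and it was -0.45 without Control 3.

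Ddit3, the factor CHOP of lasting stress, was at 0.17, -0.09, 1.82 and 0.34 in Control tumours and at 0.10, -0.57, 0.35 and -0.04 in Mutant tumours. Apart from Control 3 at the top and Mutant 2 at the bottom, the groups lay on the same levels. The difference was -0.60 (standard error 0.42, limma p = 0.195, exact permutation p = 0.286), or -0.18 without Control 3. Chac1, an enzyme that breaks down glutathione, differed by -0.81, or -0.19 without Control 3. The level of Chac1 in Control 3 was 3.92, and the next tumour was Mutant 3 at 2.28. Sesn2, a leucine sensor that restrains mTORC1, differed by -0.19, or 0.01 without Control 3.

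Targets that make or import amino acids were also highest in Control 3. Asns, asparagine synthetase, was at 3.36, 2.07, 5.17 and 2.75 in Control tumours and at 2.54, 2.93, 2.40 and 2.11 in Mutant tumours. Control 3 was 5.44-fold above the mean of the other Control tumours, and Control 2 was the lowest of all 8. The difference of Asns was -0.84 (standard error 0.61, limma p = 0.205, exact permutation p = 0.314), or -0.23 without Control 3, and its 2 passing probes gave -0.84 and -0.88. The serine synthesis enzymes Phgdh and Psat1 differed by -0.36 and -0.49, or by -0.06 and 0.01 without Control 3.

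The transporter Slc7a5, which imports leucine and other large neutral amino acids, was at -2.45, -3.12, -2.11 and -2.86 in Control tumours. In Mutant tumours Slc7a5 was at -3.00, -3.07, -2.84 and -3.01. Control 1 and Control 3 were the high tumours, and Control 2 was below all Mutant tumours (difference -0.34, standard error 0.22, limma p = 0.152, exact permutation p = 0.257, and -0.17 without Control 3). Slc7a11, the cystine importer, is the target whose side turned most. Its signal was the lowest of all members, though well above background on every array. It read -4.07, -4.20, -1.37 and -3.72 in Control tumours and -3.37, -3.17, -3.47 and -4.21 in Mutant tumours. The difference was -0.21 (standard error 0.62), and without Control 3 it was 0.44, with 3 of 4 Mutant tumours above the other Control tumours.

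Vldlr, the very low density lipoprotein receptor, is a target of Atf4 and also of hypoxia-inducible factors. It was at 2.76, 3.10, 4.10 and 3.18 in Control tumours and at 2.91, 2.77, 2.80 and 2.55 in Mutant tumours. All Mutant tumours were below 3 of the 4 Control tumours, and Control 1 lay among them. The difference was -0.53, or 0.692-fold (standard error 0.27, limma p = 0.0878, adjusted p = 1, two-sided exact permutation p = 0.114), and -0.26 without Control 3. In all, 5 of 11 Atf4 targets were at least 1.5-fold lower in Mutant tumours, against 1.98% of all genes. Without Control 3 it was 1 of 11, Trib3, against 3.65% of all genes. With all tumours, 0 of the 34 members were at least 1.5-fold higher, against 5.25%.

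**Figure D4:**
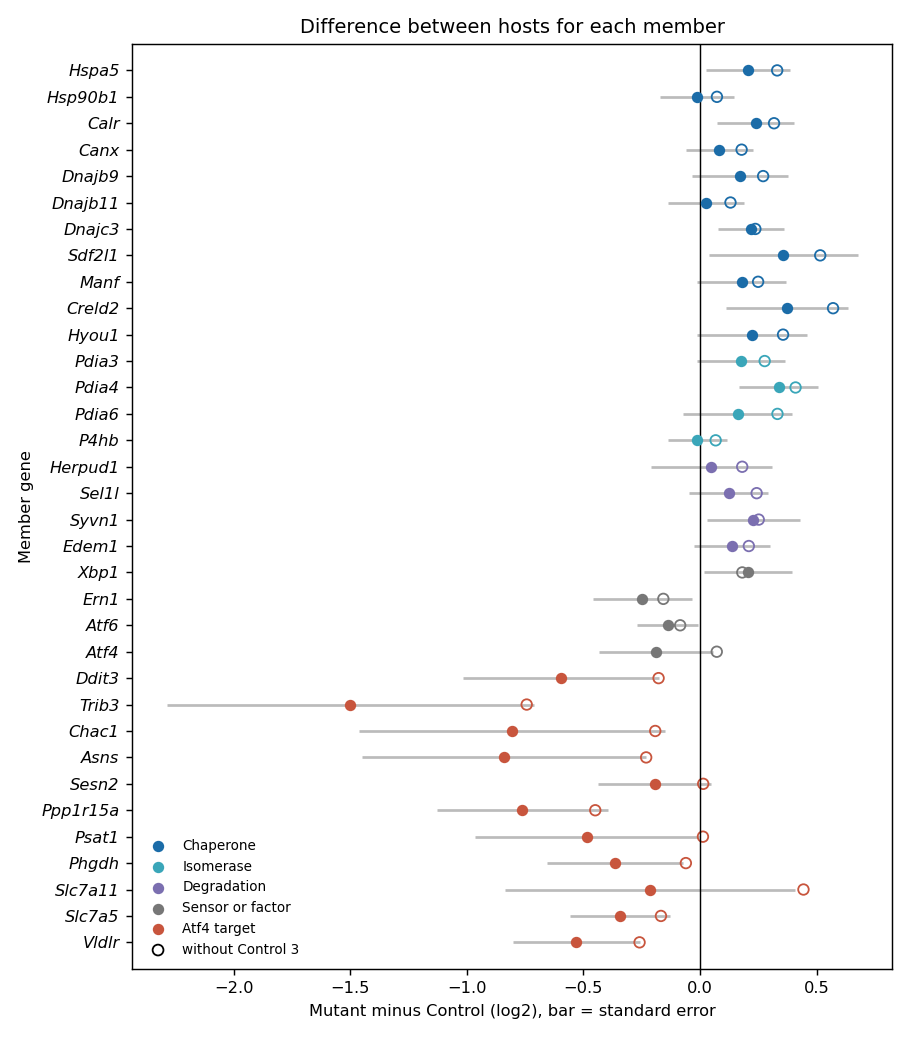
Mutant minus Control difference in log2 signal for each of the 34 members (filled points, bars give the standard error from limma), with the difference without Control 3 as open circles. Folding and degradation genes lie between -0.01 and 0.37, Atf4 targets between -1.50 and -0.19, and without Control 3 the Atf4 targets Sesn2, Psat1 and Slc7a11 are above 0.

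Control 3 was also high in further genes of the integrated stress response, outside the 34 members. Of 40 such genes 39 were measured, 36 of them below 0, with a median of -0.24. At an unadjusted p under 0.05 limma gave 0 higher and 2 lower, Bbc3 and Atf3, where 1.87% of all genes were higher and 1.03% lower, and none passed adjusted. Control 3 was the highest tumour in 35 of the 39. The level of these genes was 0.97 in Control 3 and between -0.27 and 0.01 in the other 7 tumours. Without Control 3 their median was 0.00, with 19 of 39 below 0, against 43.1% of all genes.

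The 2 genes with the smallest p kept their side without Control 3. Bbc3, the pro-apoptotic PUMA and a target of p53 and of Ddit3, was at 1.92, 1.77, 2.01 and 1.82 in Control tumours and at 1.34, 1.15, 1.81 and 1.43 in Mutant tumours. Mutant 1, 2 and 4 were below every Control tumour (difference -0.45, 0.733-fold, limma adjusted p = 1, and -0.41 without Control 3). Atf3, a stress-induced factor that represses and activates targets of Atf4, was at 0.01, -0.67, 0.44 and 0.27 in Control tumours and at -0.68, -1.11, -0.58 and -0.28 in Mutant tumours. Control 2 lay among the Mutant tumours (difference -0.67, 0.627-fold, limma adjusted p = 1, and -0.53 without Control 3). The transaminase Gpt2 differed by -0.59, or by -0.27 without Control 3. On the upper side were Cebpb at 0.14, Slc38a2 at 0.20 and Eif2ak1 at 0.06.

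Among 40 further genes of the unfolded protein response, all measured, 26 were above 0, with a median of 0.04. Limma gave 1 higher and 0 lower at an unadjusted p under 0.05, against 1.87% higher and 1.03% lower of all genes, and none passed adjusted. In 1 of the 40 the groups did not overlap, against 1.42% of all genes, so both counts were near the share of all genes. The 1 gene was Edem3 in both, a mannosidase that marks misfolded glycoproteins for degradation. It was at -0.02, 0.28, 0.19 and 0.01 in Control tumours and at 0.50, 0.33, 0.44 and 0.55 in Mutant tumours. Every Mutant tumour was above every Control tumour, with a difference of 0.34, or 1.27-fold (standard error 0.11, limma adjusted p = 1). Atf6b, a relative of Atf6, and Uggt1, which returns misfolded glycoproteins to calnexin, differed by 0.21 and 0.23. Ero1a, the oxidase that recharges the isomerases and a gene induced by hypoxia, differed by -1.04, with Control 3 at 5.51 and the others between 2.26 and 3.27, and by -0.41 without Control 3. Sec61a1 and Spcs2, of protein import into the reticulum and of signal peptide removal, differed by -0.08 and -0.12.

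Genes of hypoxia and glycolysis were at a level of 0.10, 0.27, 0.78 and -0.01 in Control tumours and -0.49, -0.42, 0.33 and -0.56 in Mutant tumours. Control 3 was thus the highest tumour in these genes as in the Atf4 targets, Mutant 3 was the highest Mutant tumour in both, and Mutant 4 the lowest in both. Control 2 did not match, as the lowest Control tumour in the Atf4 targets, at -0.44, but above Control 1 and Control 4 in these genes. All 20 of these genes were below 0, with a median of -0.57, or -0.41 without Control 3. Limma gave 6 of the 20 lower and 0 higher at an unadjusted p under 0.05, against 1.03% and 1.87% of all genes, and 0 passed adjusted. In 10 of the 20 the difference was at least 1.5-fold lower, against 1.98% of all genes. In 1, P4ha1, the groups did not overlap, against 1.42% of all genes. P4ha1, Ankrd37 and Kdm3a had the smallest p. Ddit4, counted among the further stress genes, and Ero1a stand in the hypoxia list too, and without Ddit4 the further stress genes had a median of -0.25. Control 3 had the lowest level of 8 fibroblast markers, -1.64, against -0.94 to 1.90 in the other tumours, and of 6 macrophage markers, -1.18, against -0.54 to 1.24. The part of hypoxia or of cell makeup in the level of Control 3 was not tested.

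Cytosolic heat shock genes, which answer misfolding outside the reticulum, were at a level of 0.60 in Control 3, 0.41 in Mutant 4 and 0.38 in Mutant 1, the same 3 tumours that led the folding and degradation genes. The other tumours lay between -0.58 and 0.02. Of the 12 genes 8 were above 0, against 52.4% of all genes, with a median of 0.12. At an unadjusted p under 0.05 limma gave 0 in either direction, against 1.87% higher and 1.03% lower of all genes. For a list of 12 genes this count is near the share of all genes. Hspb1 differed by 1.03 with a standard error of 0.75, Dnaja1 by 0.20 and Hspa8 by 0.11, while Hsp90aa1 differed by -0.23, Hspa1a by -0.29 and Dnajb1 by -0.03. Without Control 3 all 12 were above 0, against 9139 of the 16068 genes tested.

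**Figure D5:**
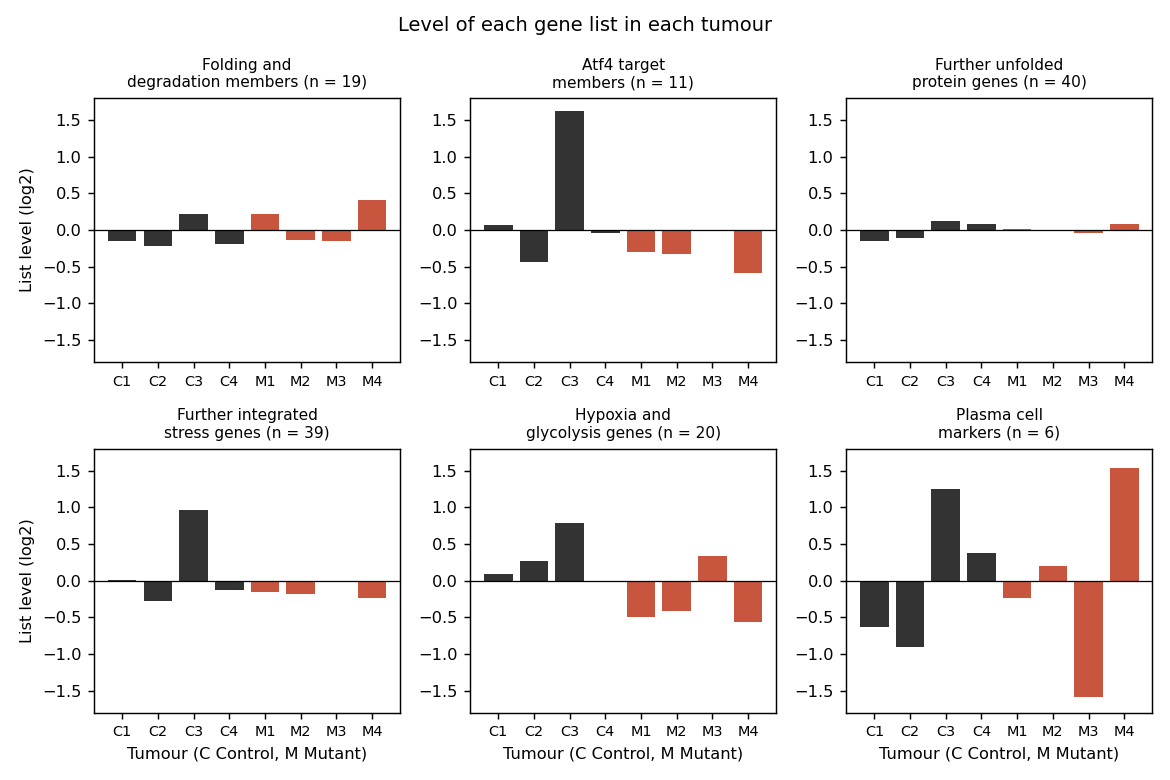
Level of 6 gene lists in each tumour (bars, mean log2 signal of the list's measured genes after centring each gene on its mean over the 8 tumours; Control dark, Mutant orange). The Atf4 targets and the further integrated stress genes stand out in Control 3 at 1.62 and 0.97, and the folding and degradation genes are highest in Mutant 4 at 0.41.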

How the data were processed

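Whole-tumour RNA of 4 Control and 4 Mutant tumours was measured on 1-colour Agilent arrays from 0.5 ug RNA per the labels' protocols. The authors deposited scanner files with the processed intensity, background-subtracted and spatially detrended per the file headers (Feature Extraction 10.7.3.1; the submitters' processing notes name 9.1), linear and not scaled between arrays, and flags of other kinds (outlier, above background). The authors' deposited value table holds the same intensity (99.5% of probes equal within 0.01%). RefSeq accessions without version gave 1 gene for 32994 of 56605 probes (GRCm38.p6). The array design names another build, so no coordinates are given. No sequences were used here.

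Control spots and outlier flags were removed, spots of a probe averaged, and log2 intensity centred on each array's 75th percentile. A probe was kept if 4 or more of the 8 arrays had it well above background, and each gene took its brightest probe. Groups were compared with limma 3.58.1 (R 4.3.3), with Benjamini-Hochberg adjustment over all genes. Single values were also compared by exact permutation over 70 arrangements, where the smallest two-sided p is 0.0286. In simulated data (16068 genes) the fit recovered 46.3% of 2-fold and 80.3% of 4-fold changes. In the tumours themselves, the 8 skeletal muscle markers had a median difference of 7.35-fold, and 0 passed at an adjusted p under 0.05. The simulated recovery may therefore overstate what the fit can find in these tumours. Precision rests on the number of arrays.

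Members and lists were chosen with earlier results of these data known. Values in every tumour are given for 7 genes whatever they showed (Hspa5, Hsp90b1, Xbp1, Atf4, Ddit3, Asns, Trib3), for members past an unadjusted p of 0.05 or with no overlap (0 members), and in each role for the 4 members of smallest p, where folding and degradation counts as 1 role. From further lists up to 3 genes of smallest p in each direction are named. Slc7a11 is shown in every tumour because its side turned, chosen after its values were seen. Alternatives covered background correction, scaling, filters, probe choice, the deposited table, variance trend, array weights, replicate and slide row blocks, and leaving out each tumour. Values of lists without Control 3 or Control 4 and sign counts by setting were chosen after the data were seen. Normexp used median signals, as the files hold no mean spot signal.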

Additional observations from a re-analysis of the deposited data

Results flagged for a closer look

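In 72 groups of 4 tumours (each member and each arm in Control and in Mutant tumours), 5 tumours stood apart from the other 3 of their group by Dixon's criterion, which chance passes in about 1 of 20 groups. Control 3 was the tumour in 3 of these 5. Atf4 was at 7.80 in Control 3, where the nearest Control tumour was at 6.83. Slc7a11 was at -1.37 in Control 3, with the nearest at -3.72, and Manf was at 2.99, with the nearest at 2.72. Dnajc3 was at -0.0061 in Control 1, below the nearest Control tumour at 0.29. Ppp1r15a was at 2.14 in Mutant 3, above the nearest Mutant tumour at 1.60. The levels of the 2 arms as a whole did not pass the criterion in either group.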

How the results depend on the processing

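No gene and no member was called at an adjusted p under 0.05 under any alternative with a test. Over settings that leave out no tumour, 428 of 438 member values kept their side of 0. With quantile scaling Hsp90b1 turned to 0.054 and P4hb to 0.022. With array weights they were 0.021 and 0.015, and Slc7a11 was 0.057. The mean of a gene's probes gave -0.0073 for Dnajb11 and -0.015 for Herpud1, and the lowest single probes gave -0.040 for Dnajb11, -0.072 for Dnajb9 and -0.079 for Herpud1. Within slide row 1 (no test), Asns was 0.022, Atf4 0.031, Ern1 0.0023, Hsp90b1 0.038, Slc7a11 0.86 and Xbp1 -0.058. Within row 2 Dnajb11 was -0.14 and Herpud1 -0.43. Leaving out each tumour, the median ranged from -0.74 (without Control 2) to -0.18 (without Control 3) for Atf4 targets and from 0.054 (without Mutant 4) to 0.27 (without Mutant 2) for folding and degradation genes, with 8 to 11 and 15 to 19 members on the stated side. The ranges that crossed 0 were -0.30 to 0.072 for Atf4, -0.016 to 0.18 for Canx, -0.066 to 0.13 for Dnajb11, -0.15 to 0.19 for Herpud1, -0.10 to 0.073 for Hsp90b1, -0.066 to 0.067 for P4hb, -0.74 to 0.013 for Psat1, -0.32 to 0.014 for Sesn2 and -0.50 to 0.44 for Slc7a11. The cause was not tested. The data show no pairing of tumours by replicate number (same-number correlations of deviations -0.31 to 0.08, and 0 tumours correlate best with their own number). A weak pairing could go unseen in these correlations. With the replicate block 0 genes were called, the medians were -0.53 and 0.18, and Ppp1r15a and Trib3 had an unadjusted p under 0.05. Other settings with members at an unadjusted p under 0.05 were the slide row block (Ppp1r15a) and leaving out Control 1 (Ppp1r15a, Vldlr), Control 2 (Slc7a5, Trib3), Control 3 (Creld2), Mutant 2 (Xbp1) or Mutant 3 (Pdia4). Array weights gave 1280 genes at an unadjusted p under 0.05 in place of 467, Creld2 and Pdia4 among them.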
